A study of Mus musculus with 6 samples.

Results

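The 14-3-3 proteins are small acidic adaptors that form dimers and bind other proteins at phosphorylated serine or threonine. Through this binding they hold client proteins such as RAF kinases, BAD, FOXO factors and class II histone deacetylases in an inactive state or in the cytoplasm, and in the heart they are known for limiting cardiomyocyte death and for binding ion channels and phospholamban. Mammals have several isoforms, each encoded by its own gene. Here the 6 members whose symbols begin with Ywha were taken by symbol from a table of 38293 genes: Ywhab (beta), Ywhae (epsilon), Ywhag (gamma), Ywhah (eta), Ywhaq (theta) and Ywhaz (zeta). All 6 were among the 14746 genes that passed a filter on low counts and were tested. The remaining isoform, Sfn (sigma, an epithelial cell cycle inhibitor), bears another name and is given beside them.

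Bulk RNA-seq was made from the hearts of 3 WT and 3 Zeb2 cKO adult mice on a backcrossed C57BL/6J strain, all of them 14 days after myocardial infarction (MI) by permanent occlusion of the left anterior descending artery. The labels call the control genotype WT, whereas the methods of the study describe the controls as Zeb2 fl/fl, in which Zeb2 carries floxed alleles in every cell. Zeb2 cKO mice carry the same floxed alleles plus a Cre recombinase driven by the Myh6 (αMHC) promoter, which is active in cardiomyocytes, so the deletion and the presence of Cre cannot be told apart in these groups. By its labels the tissue came from the border of the infarct, and by the methods from the remote zone. The study screened for secreted proteins that depend on ZEB2, a zinc finger repressor of transcription. Ywhab was on its shortlist of plasma proteins, partly chosen for its direction in these same libraries. The direction of Ywhab given here is therefore not independent evidence. In cultured cells the study reports that the shortlisted genes rose with Zeb2 overexpression and fell with its knockdown. In Zeb2 cKO hearts after MI it reports many of them as unchanged, and names Tmsb4, Ptma, Rack1 and Dynll1 as significantly lower.

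The members are shown first by a stretch of 30 coding bases that encodes a conserved signature of the family, a run of residues in the third helix that is nearly the same in every isoform and that makes the genes recognisable as one family. Capitals mark the bases that differ from Ywhab, and the sequences were read 5′ to 3′ from the Gencode M21 transcripts (GRCm38).
Ywhab, chr2:164011734-164011763, plus strand: aatctactctctgttgcctacaagaacgtg
Ywhah, chr5:33026581-33026610, plus strand: aatctCctctctgtGgcctacaagaaTgtA
Ywhag, chr5:135911583-135911612, minus strand: aaCctCctGtcGgtGgcctacaagaacgtg
Ywhaq, chr12:21416939-21416968, minus strand: aaCctGctGtcGgtGgcctacaaAaacgtg
Ywhaz, chr15:36790825-36790854, minus strand: aaCctTctctctgttgcTtaTaaAaacgtT
Ywhae, chr11:75751943-75751972, plus strand: aaCctTTtAtctgttgcAtaTaaAaaTgtg

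The stretch lies in exon 3 of the Ywhaz transcript and in exon 2 of the other 5. Ywhah differed from Ywhab at 4 of the 30 bases, Ywhag at 5, Ywhaq and Ywhaz at 6 and Ywhae at 8. Over the whole coding sequence, identity between pairs ran from 60.5% to 78.7%. The highest value belonged to Ywhag and Ywhah, the only members whose transcripts used here have 2 exons, while those of Ywhab, Ywhae and Ywhaq have 6 and that of Ywhaz has 7. Ywhae had the lowest identity with each of the other 5, between 60.5% and 62.5%, and Ywhab, Ywhaz and Ywhaq shared 72.85% to 74.1% with each other. The genes are ENSMUSG00000018326 (Ywhab, chr2:163994960-164018588, plus strand), ENSMUSG00000020849 (Ywhae, chr11:75732869-75765845, plus strand), ENSMUSG00000051391 (Ywhag, chr5:135908409-135934616, minus strand), ENSMUSG00000018965 (Ywhah, chr5:33018816-33027966, plus strand), ENSMUSG00000076432 (Ywhaq, chr12:21390071-21417637, minus strand) and ENSMUSG00000022285 (Ywhaz, chr15:36770770-36796929, minus strand).

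The libraries held 37.3 M to 51.1 M counts, of which 60.5% to 67.0% fell on mitochondrially encoded genes and 14.3 M to 19.0 M on all others. The 6 members together took 5629 to 9518 counts per library, which is 0.0380% to 0.0532% of the counts outside mitochondrially encoded genes. Values are given as CPM, counts per 1 M of the library size after TMM normalization (mitochondrially encoded genes included), in the order of replicates 1, 2 and 3. Zeb2, the targeted gene, was at 61.3, 116.05 and 71.9 CPM in WT and at 59.6, 72.6 and 66.5 CPM in Zeb2 cKO. The groups overlapped, and the log2 fold change of Zeb2 cKO over WT was -0.33 (standard error 0.25) with an adjusted p of 0.957 from the quasi-likelihood test of edgeR with Benjamini-Hochberg adjustment over all 14746 genes. The study reports lower cardiac Zeb2 in Zeb2 cKO mice by qPCR, also after MI. These libraries did not show that decrease clearly. Counts over the whole gene include reads from cells without Cre and from parts of the gene that stay in place after recombination. The part of such reads was not tested, and the log2 fold change is a weak check of the labels. With each library left out in turn, the log2 fold change of Zeb2 ran from -0.50 (without WT replicate 1) to -0.0058 (without WT replicate 2).

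WT replicate 2 stood apart from the other 5 libraries over the whole table. It was the highest library for 35.2% of the tested genes and the lowest for 34.7%. The 8 fibroblast markers, which include the collagen genes Col1a1 and Col3a1, were all highest in this library and summed to 9621 CPM there against 1680 to 2327 CPM elsewhere. The 8 macrophage markers were likewise all highest there, at a sum of 783 CPM against 198 to 277 CPM. The 8 cardiomyocyte markers, among them Myh6 and Tnnt2, summed to 10860 CPM in it and to 18040 to 22600 CPM in the others, so cardiomyocyte transcripts were abundant in every library. Endothelial and mural marker sums were also lowest in this library, at 464 CPM against 552 to 639 CPM and at 431 CPM against 582 to 699 CPM, although 3 of 8 endothelial and 1 of 6 mural markers were highest in it. Only 3 of 6 nerve and 1 of 6 adipocyte markers passed the filter. The adipocyte marker sum was low, at 0.34 to 0.91 CPM in WT and 1.02 to 2.96 CPM in Zeb2 cKO, without overlap. The 1 tested adipocyte marker had a log2 fold change of 1.28, or 0.97 without WT replicate 2, and was not called. The adipocyte gene Lep was at 0 or near it in each library. In bulk tissue a smaller number of cells of a type and less RNA per cell cannot be told apart.

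No difference between Zeb2 cKO and WT hearts was detected for any of the 6 members. No adjusted p fell under 0.05 and the libraries of the groups overlapped for every member. In the same fit 0% of all 14746 tested genes passed this threshold (0 genes), while 280 genes (1.9%) had an unadjusted p under 0.05 and the DESeq2 Wald test called 2 genes, neither of them a member. The number of genes with an unadjusted p under 0.05 was 1134 without WT replicate 1, 122 without Zeb2 cKO replicate 1 and 181 without Zeb2 cKO replicate 2. Groups did not overlap for 6.36% of tested genes and for 0 of the 6 members. With 3 libraries in each group the smallest two-sided p of an exact permutation test is 0.1.

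Ywhab, an isoform that binds RAF kinases and BAD, was at 28.9, 57.8 and 37.9 CPM in WT (41.5 ± 14.8, SD, n = 3) and at 29.9, 26.4 and 39.2 CPM in Zeb2 cKO (31.85 ± 6.63, SD, n = 3). WT replicate 2 was far above the other 5 libraries, among which the WT values lay within the range of Zeb2 cKO. The log2 fold change was -0.38 (standard error 0.28, 95% interval -1.04 to 0.27), with an adjusted p of 0.957 from edgeR and a two-sided exact permutation p of 0.5. Without WT replicate 2 it was -0.06 (95% interval -0.51 to 0.38, edgeR adjusted p = 0.9997), and without WT replicate 1 it was -0.59.

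Ywhaz, the isoform most often studied as a survival adaptor, was at 14.8, 22.3 and 17.4 CPM in WT (18.2 ± 3.79, SD, n = 3) and at 16.2, 15.0 and 17.6 CPM in Zeb2 cKO (16.3 ± 1.28, SD, n = 3). Again WT replicate 2 was the highest library and WT replicate 1 the lowest, so that the 3 Zeb2 cKO libraries lay between them. The log2 fold change was -0.16 (standard error 0.17, 95% interval -0.56 to 0.24, edgeR adjusted p = 0.957, exact permutation p = 0.7). It was 0.02 without WT replicate 2 and -0.28 without WT replicate 1.

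Ywhaq, whose loss of 1 copy in mice is known to raise cardiomyocyte death after infarction, was the member with the fewest counts, 279 to 628 per library. It was at 7.41, 14.3 and 8.70 CPM in WT (10.1 ± 3.67, SD, n = 3) and at 8.21, 7.67 and 8.62 CPM in Zeb2 cKO (8.17 ± 0.47, SD, n = 3). Outside WT replicate 2 the 5 libraries lay between 7.41 and 8.70 CPM. The log2 fold change was -0.31 (standard error 0.25, 95% interval -0.90 to 0.27, edgeR adjusted p = 0.957, exact permutation p = 0.6). It was 0.02 without WT replicate 2 and -0.49 without WT replicate 1.

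Ywhah was at 11.6, 17.3 and 13.7 CPM in WT (14.2 ± 2.88, SD, n = 3) and at 11.9, 12.4 and 13.5 CPM in Zeb2 cKO (12.6 ± 0.84, SD, n = 3). The order of its libraries at both ends was that of Ywhaz, with WT replicate 2 highest and WT replicate 1 lowest. The log2 fold change was -0.18 (standard error 0.17, 95% interval -0.57 to 0.22, edgeR adjusted p = 0.957, exact permutation p = 0.6). It was -0.0048 without WT replicate 2 and -0.30 without WT replicate 1.

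Ywhag, an isoform abundant in brain, skeletal muscle and heart, was at 37.3, 31.1 and 45.3 CPM in WT (37.9 ± 7.08, SD, n = 3) and at 35.8, 28.7 and 48.9 CPM in Zeb2 cKO (37.8 ± 10.25, SD, n = 3). Here the third replicate of each genotype was high, the second was low, and WT replicate 2 was not the extreme library. The means were almost equal. The log2 fold change was -0.0020 (standard error 0.23, 95% interval -0.55 to 0.54, edgeR adjusted p = 0.999, exact permutation p = 0.9). Its sign turned with single libraries. It was -0.12 without WT replicate 2, -0.23 without Zeb2 cKO replicate 3 and 0.16 without Zeb2 cKO replicate 2.

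Ywhae, an isoform that favours heterodimers and is known to bind the hERG potassium channel, was at 49.4, 35.5 and 48.4 CPM in WT (44.4 ± 7.78, SD, n = 3) and at 47.4, 46.9 and 49.2 CPM in Zeb2 cKO (47.8 ± 1.25, SD, n = 3). In contrast to Ywhab, WT replicate 2 was its lowest library, and the other 5 lay within 46.9 to 49.4 CPM. Ywhae was the one member with a fold change above 0, at a log2 value of 0.11 (standard error 0.15, 95% interval -0.26 to 0.47, edgeR adjusted p = 0.957, exact permutation p = 0.9). Without WT replicate 2 the log2 fold change was -0.03, and without WT replicate 1 it was 0.19. Sfn was near the limit of detection, with 19 to 30 counts per library and 0.38 to 0.68 CPM, and its log2 fold change was -0.11 (standard error 0.30, edgeR adjusted p = 0.967).

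**Figure D1:**
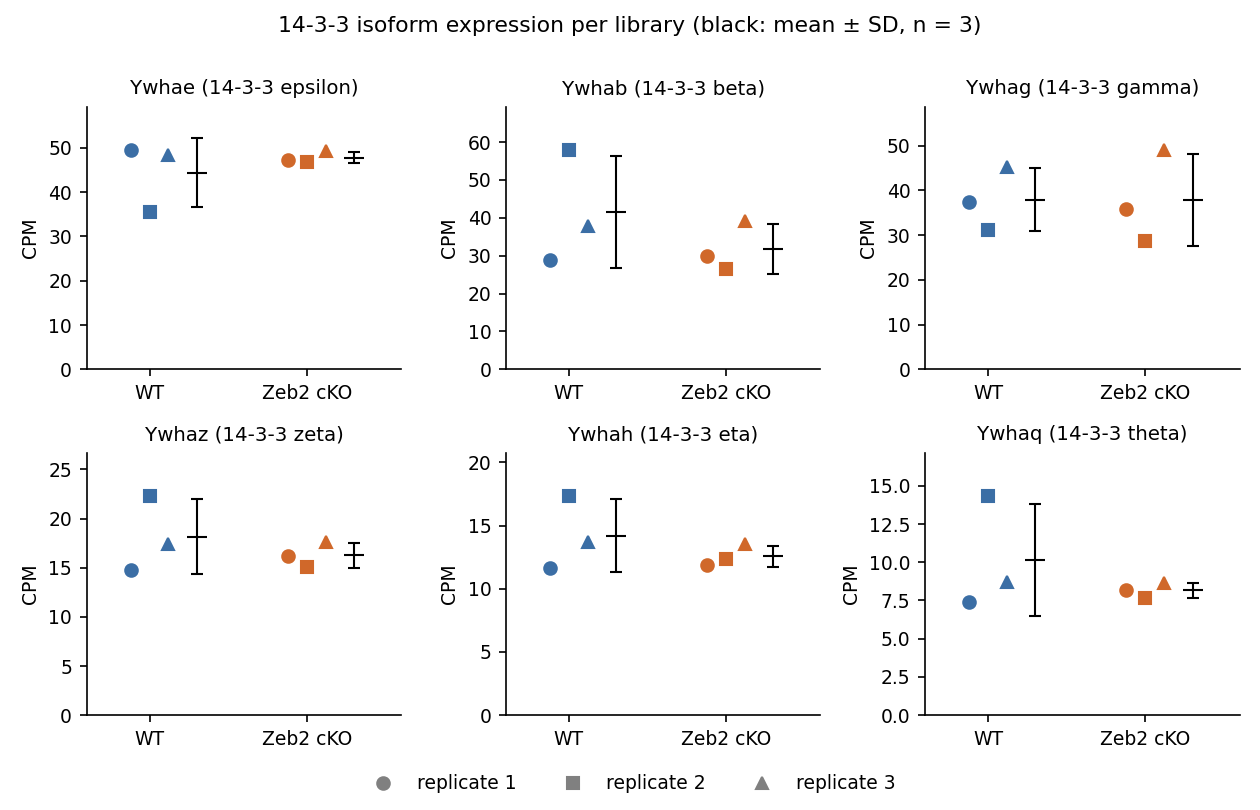
CPM (y axis, from 0) of each 14-3-3 isoform in 3 WT (blue) and 3 Zeb2 cKO (orange) libraries, with the replicate number given by the symbol and the mean ± SD of each group in black. WT replicate 2 is the highest library for Ywhab, Ywhaz, Ywhah and Ywhaq and the lowest for Ywhae, and the groups overlap in each panel.

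**Figure D2:**
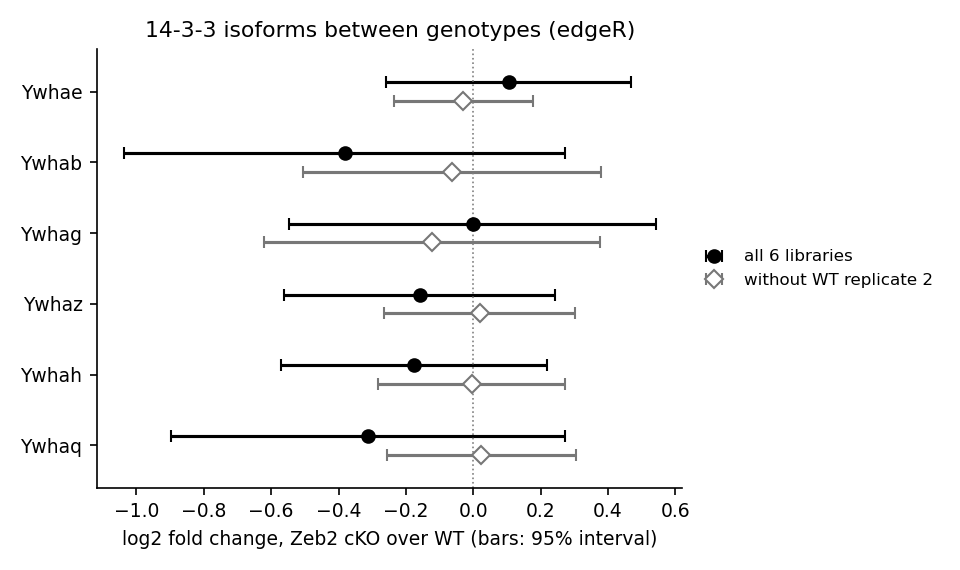
Log2 fold change of each isoform, Zeb2 cKO over WT (x axis), with 95% intervals from edgeR, for all 6 libraries (filled circles) and without WT replicate 2 (open diamonds). Every interval includes 0, and without that library the 6 values lie between -0.12 and 0.02.

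The widest 95% interval, that of Ywhab, reached from a fold of 0.487 to 1.21, and the narrowest, that of Ywhae, from 0.836 to 1.385. Counting error alone, the inverse square root of a count, amounted to 1.94% for a library with 2646 counts of Ywhae and 5.99% for one with 279 counts of Ywhaq.

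The members differed in how WT replicate 2 departed from the rest. Set against the mean of the other 5 libraries, WT replicate 2 was higher by a log2 difference of 0.85 for Ywhab, 0.82 for Ywhaq, 0.46 for Ywhaz and 0.46 for Ywhah. It was lower for Ywhae (-0.44) and for Ywhag (-0.31). The levels of the former 4 in CPM per kb of exon summed to 1.635 times those of Ywhae and Ywhag in WT replicate 2 and to 0.679 to 0.811 times in the other 5 libraries. On this scale Ywhab was at 1.24 times the level of Ywhae in that library and at 0.427 to 0.605 times in the others. Ywhae and Ywhag did not share a profile beyond this library, since Ywhag was at -0.45 in Zeb2 cKO replicate 2 and at 0.475 in Zeb2 cKO replicate 3, where Ywhae was at 0.04 and 0.12. The grouping by this library was made after these values were seen, and it has no test.

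Markers of other cell types moved with this split. The mean log2 difference of WT replicate 2 from the other libraries was 2.08 over the 8 fibroblast markers and 1.63 over the 8 macrophage markers, in the direction of Ywhab, Ywhaq, Ywhaz and Ywhah. It was -0.86 over the 8 cardiomyocyte markers, -0.30 over the 8 endothelial and -0.32 over the 6 mural markers, in the direction of Ywhae and Ywhag. Between genotypes the fibroblast and macrophage markers had a median log2 fold change of -1.03 and -0.81 with all libraries and of 0.05 and 0.04 without WT replicate 2, with none of them called by edgeR in the former fit. Zeb2 was on the side of the fibroblast markers, with a log2 difference of 0.81 in this library. The part of these cell types in the values of the members was not tested.

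**Figure D3:**
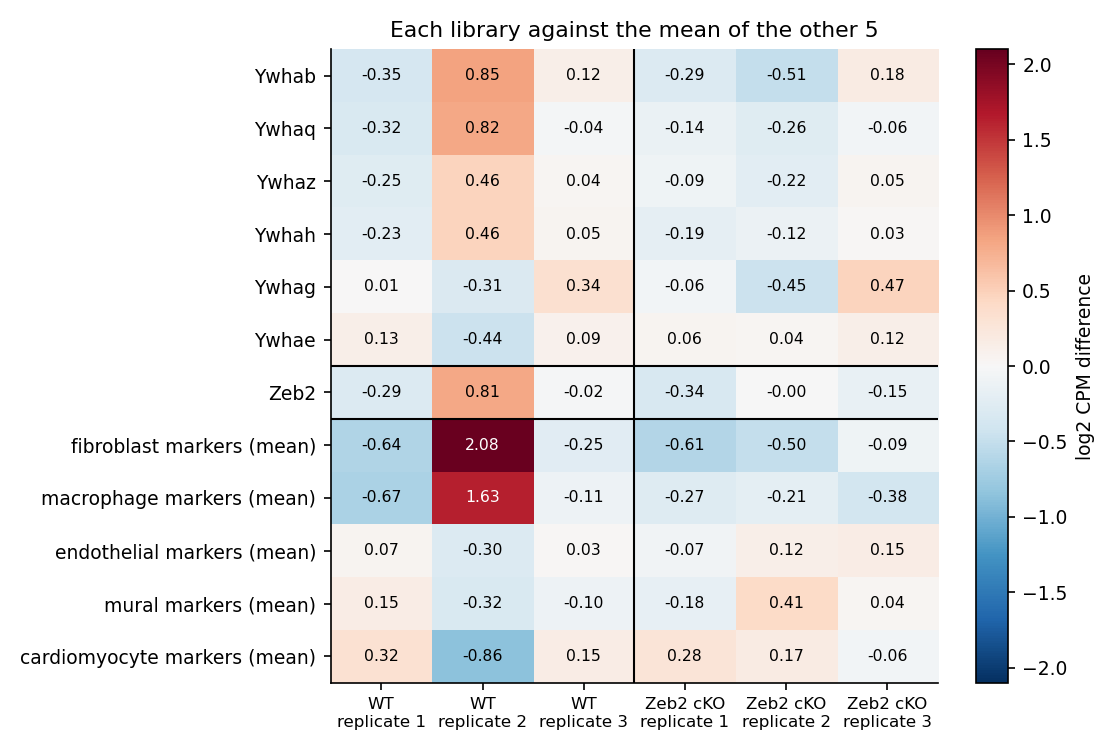
Log2 CPM difference of each library from the mean of the other 5 (colour and printed number) for the 6 isoforms, Zeb2 and the means of 5 marker lists (rows) in the 6 libraries (columns). In WT replicate 2, Ywhab, Ywhaq, Ywhaz and Ywhah are positive like the fibroblast and macrophage markers, and Ywhag and Ywhae are negative like the cardiomyocyte markers.

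To compare levels between isoforms, CPM were divided by the length of all annotated exons of a gene in kb. Ywhae was highest, at 17.97 CPM per kb (± 2.07, SD, n = 6 libraries), and was followed by Ywhab at 10.85 ± 3.41, Ywhag at 6.89 ± 1.43, Ywhaz at 4.18 ± 0.66, Ywhah at 3.61 ± 0.57 and Ywhaq at 2.99 ± 0.84. This order held in 5 of 6 libraries. In WT replicate 2, Ywhab came before Ywhae (17.1 against 13.8 CPM per kb) and Ywhaq was just above Ywhah (4.675 against 4.67).

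Neighbours in the order were compared within libraries by an exact two-sided sign-flip permutation test of the log2 ratio, which cannot go under 0.03125 with 6 libraries. The pairs and their directions were taken from these same 6 libraries, so the p-values do not test an order set beforehand. Ywhae exceeded Ywhab 1.71-fold on average, in 5 of 6 libraries, and Ywhah exceeded Ywhaq 1.23-fold, also in 5 of 6 (exact p = 0.0625 and adjusted p = 0.0625 for both). Ywhab exceeded Ywhag 1.55-fold, Ywhag exceeded Ywhaz 1.63-fold and Ywhaz exceeded Ywhah 1.16-fold, each in 6 of 6 libraries (exact p = 0.03125, adjusted p = 0.0521 over the 5 pairs). Thus no neighbouring pair passed an adjusted p of 0.05, and with 2 pairs not ordered alike in every library the other 3 could not reach it. The ratio of Ywhaz to Ywhah was the steadiest, from 1.10 to 1.23 over the libraries, while that of Ywhae to Ywhab went from 0.809 to 2.34. The step from Ywhag to Ywhaz also depends on the counts of a pseudogene of Ywhaz, described with its copies. The length used matters as well. With the longest transcript as the length, Ywhah (6.14 CPM per kb) was above Ywhaz (5.24), and with the coding length Ywhag (51.1) was above Ywhab (49.7).

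**Figure D4:**
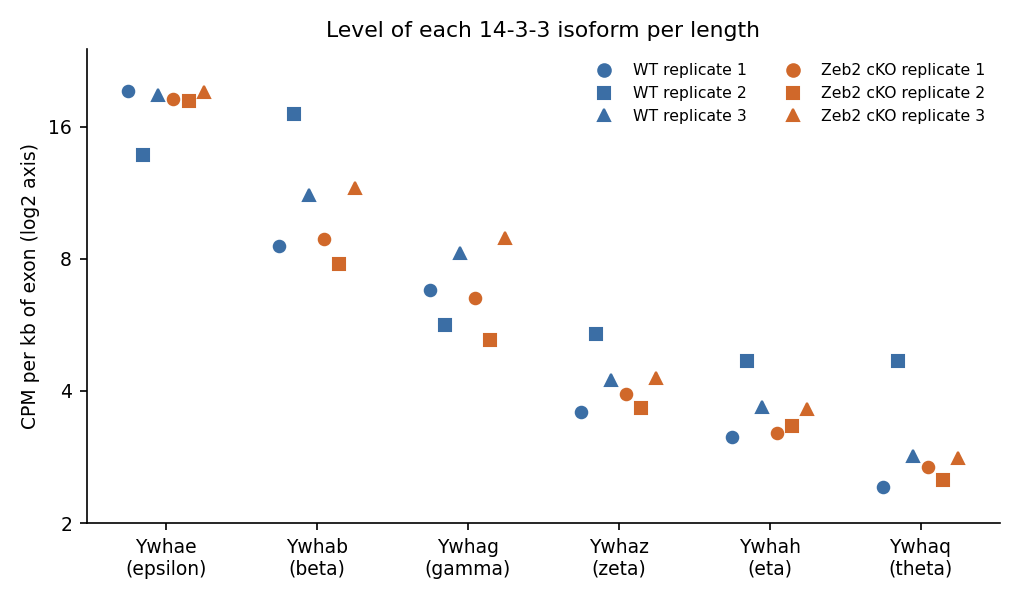
Level of each isoform in CPM per kb of exon (y axis, log2 scale) in the 6 libraries, ordered by the mean, with genotype as colour and replicate number as symbol. Ywhae lies at 18.25 to 19.25 in 5 libraries and at 13.8 in WT replicate 2, where Ywhab reaches 17.1.

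Summed over the 6 members, the level was 43.7, 51.3 and 49.0 CPM per kb in WT (48.0 ± 3.90, SD, n = 3) and 43.6, 40.8 and 50.4 CPM per kb in Zeb2 cKO (44.9 ± 4.95, SD, n = 3). The groups overlapped, and the log2 difference of Zeb2 cKO from WT was -0.10 (exact permutation test, two-sided p = 0.4). It was -0.05 without WT replicate 2, -0.16 without WT replicate 1, -0.03 without Zeb2 cKO replicate 2 and -0.18 without Zeb2 cKO replicate 3. WT replicate 2 had the highest sum by a small margin only, being high for 4 members and low for the other two. Within the sum, Ywhae made up 44.0%, 26.9% and 38.4% in WT and 42.3%, 44.8% and 38.0% in Zeb2 cKO. Ywhab made up 19.5%, 33.3% and 22.8% in WT and 20.3%, 19.1% and 23.0% in Zeb2 cKO. The remaining shares averaged 14.4% in WT and 15.1% in Zeb2 cKO for Ywhag and 9.13% and 8.815% for Ywhaz. They averaged 7.93% and 7.58% for Ywhah and 6.81% and 5.96% for Ywhaq. Without WT replicate 2 each of these differences changed sign. Zeb2 cKO minus WT was then -1.02 percentage points for Ywhag, 0.39 for Ywhaz, 0.23 for Ywhah and 0.30 for Ywhaq. No share passed the test between genotypes (exact permutation tests, two-sided, adjusted p = 0.9 for each member).

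Ywhaz and Ywhaq have near-identical copies elsewhere in the genome, and their counts are uncertain to that extent. Stretches of at least 75 bases with at least 95% identity to transcripts of other genes covered 22.4% of the longest Ywhaz transcript and 41.5% of that of Ywhaq, and 0% for the other 4 members. The main copy of Ywhaz was Gm4202, a processed pseudogene of 733 bases at chr3:92689426-92690158 on the plus strand, which differs from Ywhaz by 1 inserted base. That base falls within the signature stretch shown above, and the surrounding bases are printed because within the aligned stretch this base alone tells the genes apart, with the inserted base in capitals.
Ywhaz, chr15:36790820-36790848, minus strand: ctctctgttgcttataaaaacgttgtagg
Gm4202, chr3:92689554-92689583, plus strand: ctctctgttgcttatAaaaaacgttgtagg

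Gm4202 held 257, 452 and 318 counts in WT and 345, 286 and 467 counts in Zeb2 cKO, 2125 in all against 4611 for Ywhaz. It took 29.8% to 33.1% of the counts of the pair in each library, and its profile over the libraries followed that of Ywhaz, with WT replicate 2 again above the other 5 in CPM. Adding its counts to Ywhaz, an alternative chosen after these values were seen, raised the level of Ywhaz from 4.18 to 6.11 CPM per kb on average. Ywhag was then higher in 4 of 6 libraries only, with a mean log2 ratio of 0.16 over Ywhaz (exact sign-flip permutation test, adjusted p = 0.375) in place of 0.71. In WT replicate 2 Ywhaz stood at 7.91 against 5.66 for Ywhag, and in Zeb2 cKO replicate 2 at 5.249 against 5.225. The mean log2 CPM of Ywhaz in Zeb2 cKO then differed from that in WT by -0.15 (exact permutation test, two-sided p = 0.7).

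**Figure D5:**
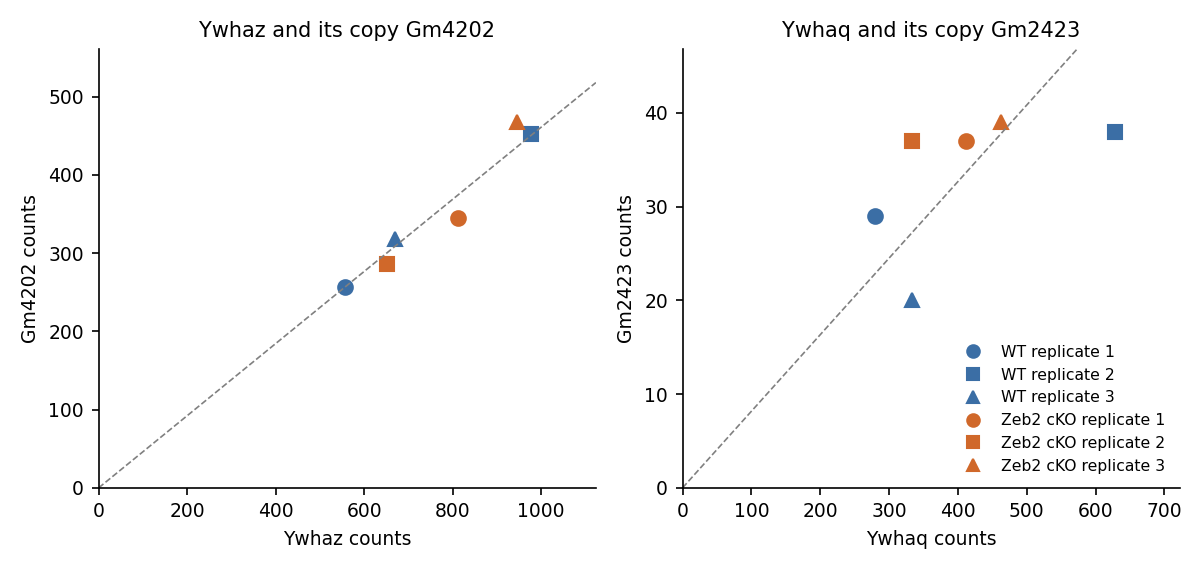
Counts of the pseudogenes Gm4202 (left) and Gm2423 (right) against the counts of Ywhaz and Ywhaq (x axis) in the 6 libraries, with genotype as colour, replicate number as symbol and a dashed line at the ratio of the summed counts. The 6 libraries lie close to the line for Gm4202, at 29.8% to 33.1% of the pair, and are scattered for Gm2423, at 5.65% to 10% of the pair.

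Among the counted pseudogenes of Ywhaq, Gm2423 held the most counts. It is a processed pseudogene at chr13:13232161-13232893 on the minus strand that differs from Ywhaq at 2 of 733 bases. The second of these is shown with its surroundings, in capitals.
Ywhaq, chr12:21395020-21395049, minus strand: ggccatcgcagagctTgatacactgaacga
Gm2423, chr13:13232273-13232302, minus strand: ggccatcgcagagctCgatacactgaacga

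Gm2423 held 29, 38 and 20 counts in WT and 37, 37 and 39 counts in Zeb2 cKO, 200 in all against 2448 for Ywhaq. Unlike Ywhaq it was not raised in WT replicate 2 in proportion, where it held 5.71% of the counts of the pair. Among the annotated pseudogenes of Ywhaq, Ywhaq-ps3 held 30 counts over all libraries and Ywhaq-ps2 held 1. Cdk5rap2, a centrosomal protein gene, shares 435 bases with Ywhaq in its annotated transcripts, at up to 100% identity, and held 2386 counts over all libraries. Other pseudogenes, the longest sharing 735 bases with Ywhaq, were not counted, so reads from them cannot be followed. On the opposite strand, Gm4419 overlaps Ywhaq and held 1 to 16 counts per library, and Gm26836 overlaps Ywhae and held 0. The strand setting of the counting is not stated, so reads of a gene and of its antisense partner may not have been told apart.

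The promoters were searched for CACCT, the core that ZEB2 is known to bind, on both strands of the RefSeq window of 250 bases before to 50 after the start of a gene (GRCm38.p6). Windows were matched for 4 of the 6 members, without Ywhab and Ywhaz. CACCT or its reverse complement AGGTG stood once in that of Ywhag, in 2 places each in those of Ywhah and Ywhaq, and in none for Ywhae, beside 51.9% of all 32851 windows with at least 1 match. The longer CAGGTG, which overlaps this motif, was in 0 of the 4 and in 20.2% of all windows. The matches of Ywhah are shown because they lie closest together, with the motif in capitals, at 99 and 90 bases before the start.
Ywhah, chr5:33018705-33018734, plus strand: gctatttatagtAGGTGacgtcaccttaaa
Ywhah, chr5:33018714-33018743, plus strand: agtaggtgacgtCACCTtaaaaagaccgtt

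These matches describe the letters of the windows, and no member with or without them was called between genotypes. The match of Ywhag lay 213 bases before its start, and those of Ywhaq lay 197 and 69 bases before.

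The proteins that work with 14-3-3 were described by 10 lists with 105 genes, all of which were tested. None was called by edgeR at an adjusted p of 0.05, and 1 of 105 had an unadjusted p under 0.05, and it was higher in Zeb2 cKO. Over all tested genes 1.04% had such a p and were higher and 0.861% were lower. That number was 4 without WT replicate 2 and 0 without Zeb2 cKO replicate 1 or replicate 3. Groups did not overlap for 7 of the 105 genes, 5 with Zeb2 cKO higher and 2 with it lower, beside 3.39% and 2.97% of all tested genes in these directions. The median log2 fold change of the 105 genes was -0.02 and that of all tested genes was -0.0069.

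Among clients, Cdc25a, a phosphatase that drives cell cycle entry, was the gene with the unadjusted p under 0.05. It was at 2.735, 2.69 and 2.92 CPM in WT and at 3.62, 3.34 and 3.93 CPM in Zeb2 cKO. All Zeb2 cKO libraries were above all WT libraries, and the log2 fold change was 0.38 (standard error 0.15), with an unadjusted p of 0.035 and an adjusted p of 0.957 from edgeR. It was 0.36 without WT replicate 2. Yap1, the Hippo pathway coactivator that 14-3-3 holds in the cytoplasm, was at 35.9, 36.2 and 40.05 CPM in WT and at 30.4, 33.1 and 35.1 CPM in Zeb2 cKO. Its groups were separate in the other direction, at a log2 fold change of -0.19 (standard error 0.11, edgeR adjusted p = 0.957) and -0.21 without WT replicate 2. Rin1, a RAS effector, had separate groups at a low level, 1.30 to 1.34 CPM in WT and 1.36 to 1.75 CPM in Zeb2 cKO.

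The other named clients overlapped between genotypes, and most of their log2 fold changes were closer to 0 without WT replicate 2. Foxo3, an inducer of atrophy and death genes, was at -0.16 with all libraries and at -0.23 without that one. Bcl2l11, which encodes the death factor BIM, went from -0.29 to -0.06. Nfatc3, a factor of calcineurin signalling, went from -0.21 to -0.09 and the RAF scaffold Ksr1 from -0.26 to -0.06. The cell cycle inhibitor Cdkn1b changed sign, from -0.22 to 0.02. Of the insulin receptor substrates, Irs2 went from -0.35 to -0.43 and Irs1 from 0.26 to 0.11. Pln, which encodes phospholamban, the inhibitor of the sarcoplasmic calcium pump, ranged from 1558 to 2285 CPM in WT and from 1859 to 2935 CPM in Zeb2 cKO with a log2 fold change of 0.27, or 0.11 without WT replicate 2. Kcnh2, the gene of the hERG channel, was at 5.81 CPM in WT replicate 2 and at 16.5 to 22.8 CPM in the other 5 libraries, and its log2 fold change of 0.42 became 0.03 without that library. The cofilin phosphatase Ssh2 and the polarity kinase Mark3 were at 0.13 and 0.11, and both at 0.04 without that library. In edgeR each of these genes had an adjusted p of 0.957.

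Enzymes that write, erase or modify 14-3-3 sites gave a like picture. Of 20 kinases that phosphorylate binding motifs, 0 had an unadjusted p under 0.05. The lowest p belonged to Rps6ka3, a ribosomal S6 kinase of the MAP kinase pathway, with 46.1, 56.15 and 51.8 CPM in WT, 37.5, 42.0 and 48.2 CPM in Zeb2 cKO and a log2 fold change of -0.27 (standard error 0.14, edgeR adjusted p = 0.957). Its relative Rps6ka1 was at -0.41, and at -0.05 without WT replicate 2. Among 8 phosphatase subunits, the groups were separate for Ppp1ca, the catalytic subunit of protein phosphatase 1, at 67.8 to 79.8 CPM in WT and 80.1 to 88.4 CPM in Zeb2 cKO, with a log2 fold change of 0.17 that was 0.10 without WT replicate 2. The scaffold subunit Ppp2r1a was at 0.18 with overlapping groups and at 0.06 without that library. Hdac6, a cytoplasmic deacetylase that acts on 14-3-3 zeta, was at 6.22 to 9.32 CPM in WT and 9.71 to 10.2 CPM in Zeb2 cKO, without overlap and at a log2 fold change of 0.29, which was 0.14 without WT replicate 2. Sphk1, the kinase that consumes sphingosine, a lipid known to open 14-3-3 dimers to phosphorylation, was highest in WT replicate 2 (2.53 CPM against 0.819 to 1.06 CPM), and its log2 fold change of -0.60 became 0.07 without that library. None of these genes was called by edgeR (adjusted p = 0.957 for each).

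The genes with the most similar profile were sought for each member over the 6 libraries among all tested genes. Likeness was the root mean square difference between the log2 CPM of both genes, each centred on its own mean, so a smaller value means a closer profile. For Ywhab they were Hivep3 (0.043), a zinc finger gene, and Hnrnpul2 (0.048), an RNA binding protein gene. For Ywhaz they were Actr3 (0.026) and Arpc2 (0.030), both subunits of the actin nucleating complex ARP2/3. Ywhaq was closest to Gnai3 (0.029), a G protein subunit gene, and Ctdspl (0.036), a phosphatase gene, and Ywhah to Mier1 (0.029) and Fam172a (0.030). These 8 genes were all highest in WT replicate 2. Ywhag was closest to Clic5 (0.071), an intracellular chloride channel protein gene, and Hspb7 (0.086), a small heat shock protein of heart muscle, and Ywhae to Urb2 (0.022) and Cep76 (0.025), a ribosome biogenesis and a centrosome gene. With 6 libraries that share WT replicate 2 as an extreme, these values describe the profiles and are not tested.

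Among the members themselves, Ywhah and Ywhaz had the closest profiles, with a difference of 0.049, and Ywhab and Ywhae the most distant ones, at 0.52. Ywhag and Ywhah, which have the highest coding identity, were 0.35 apart, whereas Ywhab, Ywhaz and Ywhaq, which share 72.85% to 74.1% of their coding sequence, were 0.13 to 0.19 apart.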

How the data were processed

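RNA was extracted with TRIzol from heart tissue and sequenced after depletion of ribosomal RNA with a stranded TruSeq kit. The authors aligned the reads and deposited raw counts per gene on the Gencode M4 annotation (GRCm38) with a STAR workflow. The strand option and the handling of reads with several hits are not given in the sources used here. The study compared the groups with DESeq, which was not used here. Groups and replicate numbers came from the sample labels, and 0 columns were left unmatched.

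Counts were normalized with TMM and tested with glmQLFit and glmQLFTest in edgeR 4.0.16 (R 4.3.3) after filterByExpr with its defaults, with genotype as the factor, a prior count of 0.125 and Benjamini-Hochberg adjustment over the 14746 genes kept. Standard errors of log2 fold changes are those implied by the fold change and its quasi-likelihood test, and the 95% intervals were formed from them. DESeq2 1.42.0 was an alternative. Single values were compared with exact permutation tests (scipy 1.17.1). P-values measure the spread between libraries, each described as 1 mouse. Symbols, coordinates, lengths and transcripts came from Gencode M21 of the same build (14573 tested genes with a symbol), promoters from RefSeq, and copies from BLAST 2.17.0. The steps were tested on simulated data for this comparison. Of 14643 tested genes, 47 of 100 changed by 1 on the log2 scale were called, 99 of 100 changed by 2, and 6 of 14444 unchanged genes. These numbers hold for the simulated spread. Their bearing on the real libraries, with an outlier such as WT replicate 2, was not tested.

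Depth was 37.3 M to 51.1 M counts per library. Counting errors given cover counting alone. The members and all lists were chosen with earlier results of these data known. Named genes were the 6 members, Zeb2, Sfn, the 2 genes with the smallest p of each partner list, the 2 closest profiles of each member, and pseudogenes or overlapping genes with counts. Hand-picked marker lists held 8 or 6 genes for 7 cell types. Alternatives covered normalization, the filter, the test, robust dispersion, the replicate number, mitochondrially encoded genes, the length, pseudogene counts and leaving out each library.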

Additional observations from a re-analysis of the deposited data

How the results depend on the processing

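In all 13 alternative fits across genes, including those without 1 library, 0 members and 0 partner genes were called. Genes called higher were 2 with the DESeq2 Wald test and 0 in edgeR. Of 292 alternative values of 26 results, 264 kept their direction and their side of the threshold, 19 changed sign and 9 counts moved by more than 1.5 times. The near-zero log2 fold change of Ywhag became 0.00047 with DESeq2 size factors, 0.0050 with upper quartile scaling, 0.017 with no filter on low counts and 0.00041 with the DESeq2 Wald test. With each library left out in turn the log2 fold changes ran from -0.59 to -0.063 for Ywhab, -0.030 to 0.19 for Ywhae, -0.23 to 0.16 for Ywhag, -0.30 to -0.0048 for Ywhah, -0.49 to 0.024 for Ywhaq, -0.28 to 0.019 for Ywhaz and -0.27 to 0.078 for Sfn. The log2 difference of the sum ran from -0.18 to -0.03. Differences in shares of the sum ran between -7.26 and -0.37 percentage points for Ywhab, 0.46 and 9.02 for Ywhae, -1.02 and 1.86 for Ywhag, -0.73 and 0.23 for Ywhah, -1.49 and 0.30 for Ywhaq and -0.77 and 0.39 for Ywhaz. The log2 ratio of Ywhaz over Ywhah was -0.23 with the length of the longest transcript, and that of Ywhab over Ywhag was -0.067 with the coding length, by construction of the length. Genes with an unadjusted p under 0.05 numbered 600 with no filter.

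Replicate numbers 1 to 3 occur in both groups but the mice differ. Deviations from the group means of same-numbered libraries correlated at 0.09, -0.14 and -0.09 across genes. With 3 libraries per group and WT replicate 2 far from the others, these values cannot exclude a batch shared by same-numbered libraries. With the replicate number as a block, 0 genes were called, 0 partner genes had an unadjusted p under 0.05, and the log2 fold changes were -0.34 for Ywhab, 0.12 for Ywhae, -0.02 for Ywhag, -0.16 for Ywhah, -0.25 for Ywhaq and -0.14 for Ywhaz. The 95% intervals of the log2 fold changes give the changes that 3 mice per group left possible.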
